A study of Mus musculus with 20 samples.

Results

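The ribosomal protein pseudogenes described here are the genes whose symbols start with Rpl or Rps and contain -ps and that the count table marks as kept. There were 13 of them among 18169 kept genes, out of 39253 genes in the count table. They belong to 10 families, each named after a parent gene, the symbol before -ps: Rps15a with 3 kept pseudogenes, Rpl17 with 2, and Rps6, Rps18, Rpl13, Rpl14, Rpl27a, Rpl31, Rpl34 and Rplp2 with 1 each. All 13 pseudogenes and all 10 parents were abundant enough to be tested. A further 7 genes of the same naming, 6 of Rps12 and 1 of Rps19, were in the table but were not kept. Their highest level in any mouse was 0.256 CPM (a gene's counts scaled to the size of its library), reached by Rps12-ps10.

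The samples were ovarian antral follicles, follicles of the later stages of growth with a fluid-filled cavity, from 20 CD-1 mice, an outbred strain. Iodoacetic acid (IAA), a by-product of water disinfection, was given in the drinking water for 35 days from 40 days of age, and follicles were collected at 75 days of age in diestrus, 30 to 40 per mouse and 220 to 400 µm across. Experiment 1 held 5 mice at 500 mg/L and 5 controls on plain drinking water (control replicates 6 to 10), and experiment 2, a month apart, held 5 mice at 10 mg/L and 5 controls (control replicates 1 to 5). Each mouse is 1 library, and each dose was given in only 1 experiment.

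Cytosolic ribosomal proteins are made in every cell, from short, abundant, intron-containing genes. Their mRNAs have often been copied back into the genome by the reverse transcriptase of LINE elements, which leaves intronless copies called processed pseudogenes, and ribosomal protein genes are among the best known sources of such copies in mammals. Most are silent, but some lie where they are transcribed. Because a copy can be nearly the same as its parent's coding sequence, a short read often fits both, and counting programs then divide the read between them by estimation.

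Libraries held 39.9 M to 67.5 M estimated counts. Granulosa cell markers summed to 6350 to 13600 CPM and oocyte markers to 301 to 634 CPM in each mouse, so the labelled tissue had its defining cells. The library of IAA 10 mg/L replicate 2 stood apart, with 239 CPM summed over 7 RNAs that lack a poly(A) tail, against 4.64 to 22.3 CPM in the other 19.

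How far a read of 101 bases can tell a pseudogene from its parent differed widely between the pseudogenes. The share of such stretches that occur in the parent ran from 13.3% to 100% among those with a sequence here. In the GENCODE M21 annotation of the mouse build GRCm38, 10 of the 13 pseudogenes were found by name, 9 typed as processed pseudogenes and Rps15a-ps4 as a transcribed processed pseudogene. Rpl27a-ps4, Rplp2-ps1 and Rps18-ps4 were not matched there. RefSeq's gene table types Rpl34-ps1 and Rpl31-ps12 as protein coding. The 10 were 97.4% to 100% identical to their parents' coding sequences over the aligned bases. Rps6-ps4, the pseudogene with the most counts, is shown with its parent because they do not differ: all 750 coding bases are the same, and all 650 stretches of 101 bases that fit in Rps6-ps4 occur in the coding sequence of Rps6. The stretch below is the first 120 coding bases, at chr2:75191703-75191822 on the minus strand for Rps6-ps4, and spliced from chr4:86856746-86857326 on the minus strand for Rps6.
Rps6-ps4: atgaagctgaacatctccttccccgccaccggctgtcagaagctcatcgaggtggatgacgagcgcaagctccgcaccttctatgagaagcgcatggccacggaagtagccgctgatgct
Rps6: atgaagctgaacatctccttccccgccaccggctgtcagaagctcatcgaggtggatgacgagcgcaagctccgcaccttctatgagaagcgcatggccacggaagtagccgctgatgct

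Rpl34-ps1 differs from Rpl34 at 2 of 354 coding bases, T132C and C318G, with the parent's base first and positions counted from 1 at the first base of the start codon. Both leave the reading frame open to the parent's stop codon, after 117 codons. The stretch from position 101 to 220 is shown because a read that covers its single difference, in capitals, can be told from the parent. It lies at chr6:71124710-71124829 on the plus strand for Rpl34-ps1, and is spliced from chr3:130728797-130729115 on the minus strand for Rpl34. Of the stretches of 101 bases in Rpl34-ps1, 45.7% occur in Rpl34.
Rpl34-ps1: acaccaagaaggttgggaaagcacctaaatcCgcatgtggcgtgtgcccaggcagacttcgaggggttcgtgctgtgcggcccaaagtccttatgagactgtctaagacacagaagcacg
Rpl34: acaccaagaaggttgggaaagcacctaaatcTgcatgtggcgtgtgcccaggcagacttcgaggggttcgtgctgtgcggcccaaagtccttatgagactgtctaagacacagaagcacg

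Rpl31-ps12 differs from Rpl31 at 4 of 375 aligned bases, G55A, C111T, G122A and C363T. Positions 31 to 150 are shown because they hold 3 of these 4, in capitals, at chr16:16819974-16820093 on the minus strand for Rpl31-ps12 and spliced from chr1:39368179-39370056 on the plus strand for Rpl31. Of its stretches of 101 bases, 50.9% occur in Rpl31.
Rpl31-ps12: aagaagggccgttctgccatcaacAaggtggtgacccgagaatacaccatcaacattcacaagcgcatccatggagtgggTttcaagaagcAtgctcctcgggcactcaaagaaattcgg
Rpl31: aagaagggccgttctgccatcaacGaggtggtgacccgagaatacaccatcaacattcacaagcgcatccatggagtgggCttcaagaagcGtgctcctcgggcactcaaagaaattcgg

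The Rps15a family shows 3 copies of 1 parent that also differ from each other. The first 180 coding bases are at chr11:6172857-6173036 for Rps15a-ps6, chr5:105797534-105797713 for Rps15a-ps5 and chr4:132220258-132220437 for Rps15a-ps4, each on the minus strand, and are spliced from chr7:118114818-118115241 on the minus strand for Rps15a. Capitals in a pseudogene mark where it differs from Rps15a, and capitals in Rps15a mark where any of the 3 differs. T150C is in all 3 copies and is the single position with that property. In Rps15a-ps6, C7T turns the third codon into the stop codon TGA, so that its reading frame ends after 2 codons, against 130 in Rps15a. Rps15a-ps5 keeps all 130 codons, and in Rps15a-ps4 a stop codon, TAG, follows 106 codons. Few stretches of 101 bases in these copies occur in Rps15a: 15.4% for Rps15a-ps6, 13.3% for Rps15a-ps5 and 13.7% for Rps15a-ps4.
Rps15a-ps6: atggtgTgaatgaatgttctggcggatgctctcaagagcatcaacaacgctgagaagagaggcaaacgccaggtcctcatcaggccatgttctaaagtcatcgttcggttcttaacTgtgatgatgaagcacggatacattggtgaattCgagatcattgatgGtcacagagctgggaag
Rps15a-ps5: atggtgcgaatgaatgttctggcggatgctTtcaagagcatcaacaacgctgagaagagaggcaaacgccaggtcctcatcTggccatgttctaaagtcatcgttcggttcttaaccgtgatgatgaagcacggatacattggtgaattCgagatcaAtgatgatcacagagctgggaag
Rps15a-ps4: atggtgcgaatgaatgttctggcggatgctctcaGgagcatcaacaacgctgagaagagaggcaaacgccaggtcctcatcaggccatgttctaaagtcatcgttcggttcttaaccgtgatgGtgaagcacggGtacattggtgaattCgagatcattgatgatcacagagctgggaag
Rps15a: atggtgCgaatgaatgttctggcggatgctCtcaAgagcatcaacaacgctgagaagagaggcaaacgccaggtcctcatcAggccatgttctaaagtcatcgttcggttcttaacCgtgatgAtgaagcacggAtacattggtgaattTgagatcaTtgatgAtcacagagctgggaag

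The counts of the 13 pseudogenes, in CPM not corrected for gene length, covered more than 3 orders of magnitude. Over all 20 mice, the mean was 948.7 CPM for Rps6-ps4, 338.4 CPM for Rpl34-ps1, 211.1 CPM for Rpl27a-ps4, 117 CPM for Rpl17-ps8 and 110.1 CPM for Rplp2-ps1. A middle group had means of 44.8 CPM for Rps15a-ps5, 41.4 CPM for Rps15a-ps6, 25.8 CPM for Rpl31-ps12, 9.94 CPM for Rps15a-ps4 and 2.11 CPM for Rps18-ps4. Rpl14-ps1, Rpl13-ps6 and Rpl17-ps10 had means of 0.297, 0.221 and 0.181 CPM, which rest on few counts: Rpl17-ps10 had 28 counts over the 5 mice at 500 mg/L, 33 over the controls of experiment 1, 56 over the 5 mice at 10 mg/L and 53 over the controls of experiment 2. The sum of all 13 was 1887 to 2253 CPM at 500 mg/L, 1283 to 1908 CPM at 10 mg/L and 1389 to 2223 CPM in the 10 controls, and these ranges overlapped.

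**Figure D1:**
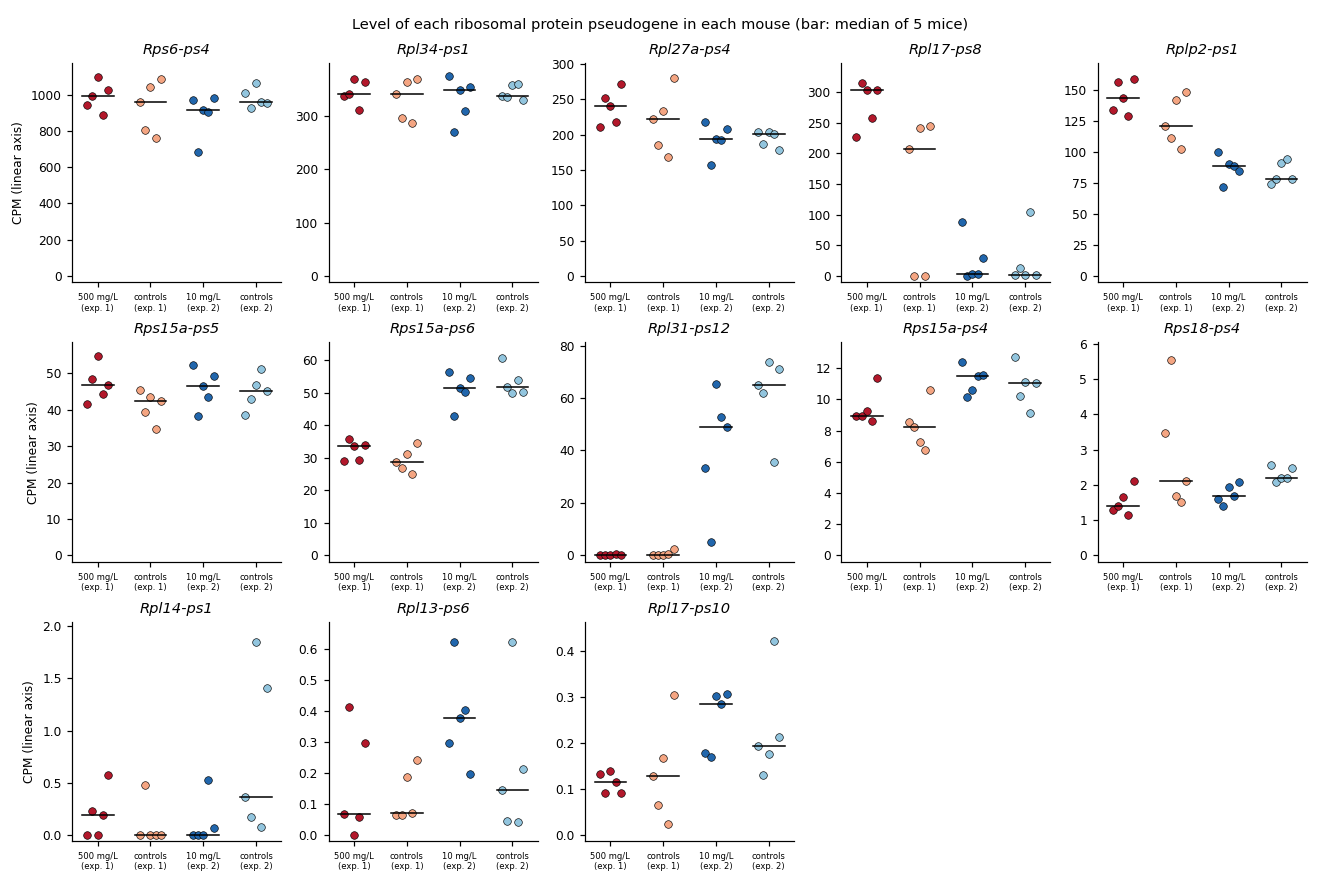
CPM of each of the 13 pseudogenes in each mouse, on a linear axis, for mice at 500 mg/L and controls of experiment 1, then mice at 10 mg/L and controls of experiment 2 (points: mice, n = 5 per set; bars: medians). Rps15a-ps6, Rpl31-ps12 and Rplp2-ps1 separate the 10 mice of experiment 1 from the 10 of experiment 2, while Rps6-ps4 and Rpl34-ps1 stay at similar levels in all 4 sets.

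In the Rps6 and Rpl34 families the pseudogene, not the parent, held most of the counts. Rps6 encodes a protein of the small subunit that is the classical target of S6 kinase, and Rpl34 encodes one of the large subunit. Rps6-ps4 took 93.3% to 97.2% of the family's counts in each of the 20 mice. The share averaged 96.2% ± 1.61 at 500 mg/L and 95.8% ± 0.750 in the controls of experiment 1, and 95.1% ± 1.03 at 10 mg/L and 96.5% ± 0.790 in the controls of experiment 2 (SD, n = 5 each). With the counts of the whole gene divided by its coding length in GENCODE M21, Rps6-ps4 averaged 1265 CPM and Rps6 53.6 CPM per kilobase over the 20 mice. The parent's counts can include reads outside its coding sequence, since the annotated Rps6 transcript has 878 bases, of which 750 are coding. A read that lies within the coding sequence fits both genes equally well, and how the estimation divided such reads was not tested.

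Divided by coding length in the same way (354 bases, of 624 in the annotated Rpl34 transcript), Rpl34-ps1 averaged 956 CPM per kilobase and Rpl34 102 CPM. Its share of the Rpl34 family was 92.2% to 94.2% in the 10 mice of experiment 1 and 85.5% to 90.9% in the 10 mice of experiment 2, so the shares did not overlap between experiments although the levels of Rpl34-ps1 did. Rpl27a-ps4 took 22.2% to 25.1% of the Rpl27a family in experiment 1 and 19.96% to 22.2% in experiment 2. The pseudogene's share was at most 0.0784% for Rpl13, 0.316% for Rpl14 and 2.04% for Rps18 in each mouse.

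No pseudogene passed the test in any comparison of exposed mice. The test is edgeR's quasi-likelihood test with Benjamini-Hochberg adjustment over all 17810 tested genes, at an adjusted p of at most 0.05, and it called 0 of 13 for 500 mg/L against all controls (2 of 17810 genes, 0.0112%), 0 of 13 for 10 mg/L against all controls (0.00561% of genes) and 0 of 13 for 500 mg/L against 10 mg/L (0.0112%). Against the 5 controls of the same experiment it called 0 of 13 at either dose, where it called 0% of all genes. At an unadjusted p under 0.05 the same test counted 3 of 13 for 500 mg/L against all controls (8.69% of all genes), 1 of 13 for 10 mg/L against all controls (6.22%) and 6 of 13 for 500 mg/L against 10 mg/L (10.0%). Within experiments it counted 2 of 13 at 500 mg/L (5.19% of all genes) and 0 of 13 at 10 mg/L (6.45%). DESeq2, another count test, called 1, 0 and 2 of 13 in the same 3 comparisons across experiments and 0 within experiments. The shares of all genes that DESeq2 called are not given here, so these counts are not read as a result about the pseudogenes. In these dissected follicles, fewer cells of a type and less RNA per cell cannot be told apart.

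The members' median log2 change was near that of all genes in the comparisons with all controls. It was 0.01 at 500 mg/L and -0.03 at 10 mg/L, beside 0.00 over all tested genes in both. Within experiment 1 it was 0.15 at 500 mg/L, with 10 of 13 positive, beside 0.00 for all tested genes and 0.08 for 90 cytosolic ribosomal protein genes, of which 72 were positive. Within experiment 2 it was -0.01 at 10 mg/L, with 6 of 13 positive, beside 0.00 for all tested genes and -0.06 for the 90 ribosomal protein genes, of which 16 were positive. The values at 500 mg/L depended on control replicates 7 and 9, the controls with the lowest sums of these 90 genes. Leaving them out was an alternative chosen after seeing the data. It raises the controls' level of the 90 genes by construction, so it shows only how much rested on these 2 mice. Within experiment 1, 7 of 13 pseudogenes were then positive, and their median stayed positive at 0.04. Of the 90 ribosomal protein genes 17 were positive, and their median turned to -0.05. In the same alternative the members' median against all controls was -0.09 at 500 mg/L and -0.07 at 10 mg/L. Beside these stood 0.01 and 0.00 for all tested genes, and -0.08 and -0.03 for the 90 ribosomal protein genes. Among these 90 genes, chosen as the cytosolic ribosomal proteins, 0 passed in any of the 5 comparisons of exposed mice.

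The test did call pseudogenes between the 2 sets of unexposed mice. For the controls of experiment 1 against those of experiment 2 it called 3 of 13 pseudogenes, beside 28 of 17810 genes (0.157%). Rpl31-ps12 and Rps15a-ps6 were lower in experiment 1 (0.0786% of all genes) and Rplp2-ps1 was higher (also 0.0786%). At an unadjusted p under 0.05 the counts were 5 of 13 pseudogenes and 9.78% of all genes. The same 3 were those whose values did not overlap between the 10 mice of experiment 1 and the 10 of experiment 2, exposed mice included, which holds for 43 of 17810 genes (0.241%). Since each dose belongs to 1 experiment, any comparison of 500 mg/L mice with 10 mg/L mice contains this difference in full, and any comparison with all 10 controls contains a part of it; dose and experiment cannot be told apart there.

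**Figure D2:**
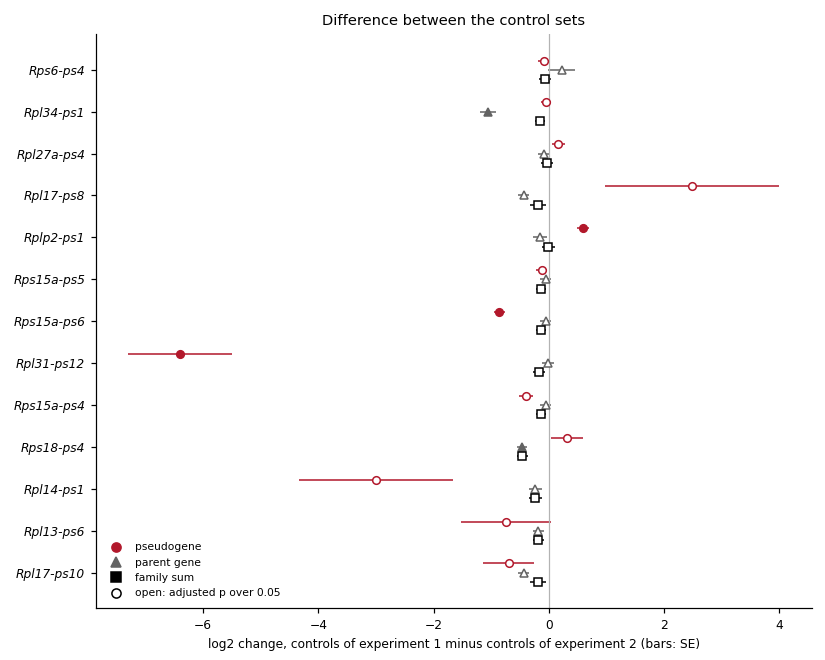
Log2 change of each pseudogene, its parent gene and the sum of their family, controls of experiment 1 minus controls of experiment 2, in edgeR (bars: SE, n = 5 per set; filled symbols: adjusted p of at most 0.05). Rpl31-ps12 at -6.39, Rps15a-ps6 at -0.86 and Rplp2-ps1 at 0.59 are filled, while the sums of their families lie between -0.17 and -0.01 and are open.

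Rpl31-ps12 is a copy of Rpl31, which encodes a protein of the large subunit. Its level was 0, 0, 0, 0.386 and 0 CPM in the 5 mice at 500 mg/L and 0, 0, 0.270, 0.741 and 2.59 CPM in the controls of experiment 1. It was 33.3, 5.16, 65.2, 52.6 and 49.1 CPM in the 5 mice at 10 mg/L and 64.9, 62.0, 73.6, 35.4 and 71.2 CPM in the controls of experiment 2. It was at or near 0 in each mouse of experiment 1 and clearly counted in each of experiment 2, with IAA 10 mg/L replicate 2, the library that stood apart, lowest there.

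Between the control sets Rpl31-ps12 fell by 6.39 on the log2 scale (SE 0.903, edgeR adjusted p = 0.00714, 5 of 5 mice of experiment 1 below the median of experiment 2). The controls of experiment 1 held 173 counts in all, and those of experiment 2 held 14120. Without control replicate 10 the log2 change was -7.94 (adjusted p = 0.00126), and without control replicates 7 and 9 together it was -5.98 (adjusted p = 0.0548). The level of Rpl31 itself was 404 to 628 CPM in experiment 1 and 420 to 560 CPM in experiment 2. Together the family's counts summed to 513 ± 91.3 CPM in the controls of experiment 1 and 579 ± 39.3 CPM in those of experiment 2 (SD, n = 5 each), a log2 change of -0.17 (SE 0.108, adjusted p = 0.636). The share of Rpl31-ps12 in the family was 0% to 0.411% in experiment 1 and 1.21% to 12.5% in experiment 2.

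Against the exposed mice, Rpl31-ps12 had the lowest p of the 13 for 500 mg/L against all controls, with a log2 change of -8.55 (SE 2.07, p = 0.000559, adjusted p = 0.249 in edgeR). For 500 mg/L against 10 mg/L the log2 change was -8.96 (SE 2.13, adjusted p = 0.192). With all mice fitted, DESeq2 called both changes (adjusted p = 0.000689 and 0.00207). Without IAA 500 mg/L replicate 4 the other mice at 500 mg/L all had 0 counts. The edgeR fit then gave -13.5 (adjusted p = 0.449) and -13.9 (adjusted p = 0.368), sizes that counts of 0 cannot set. Set against the 5 controls of experiment 1, the log2 change at 500 mg/L was -3.15 (SE 1.28, p = 0.0243, adjusted p = 0.954 in edgeR), on 20 counts in the mice at 500 mg/L and 173 in these controls, and the values overlapped. It rested on single mice: without control replicate 10 it was -1.60 (adjusted p = 0.853), and without IAA 500 mg/L replicate 4, the only exposed mouse of experiment 1 with counts, it was -8.10 (adjusted p = 0.919). The size of this last value is not set by the counts either. In the authors' deposited table Rpl31-ps12 has a fold change of -54.2 at 500 mg/L against control (FDR 0.0409) and of -452 at 500 mg/L against 10 mg/L (FDR 0.0184); its control group is not split by experiment.

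Rps15a-ps6 is the copy of Rps15a, a protein of the small subunit, whose frame ends at the third codon. Its level was 29.1, 35.6, 33.7, 29.3 and 33.9 CPM at 500 mg/L and 28.5, 26.7, 31.2, 25.1 and 34.6 CPM in the controls of experiment 1. It was 56.2, 42.7, 51.3, 50.2 and 54.6 CPM at 10 mg/L and 60.5, 51.6, 49.7, 53.8 and 50.2 CPM in the controls of experiment 2. The highest mouse of experiment 1, at 35.6 CPM, lay below the lowest of experiment 2, at 42.7 CPM.

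Between the control sets Rps15a-ps6 fell by 0.86 (log2, SE 0.0936, edgeR adjusted p = 0.000298, 5 of 5 mice below the median of experiment 2). The other copies of Rps15a did not pass: Rps15a-ps4 had a log2 change of -0.39 (SE 0.122, adjusted p = 0.265) and Rps15a-ps5 one of -0.13 (SE 0.0968, adjusted p = 0.721). Rps15a-ps5, with 34.8 to 54.6 CPM in experiment 1 and 38.1 to 52.2 CPM in experiment 2, overlapped throughout. The parent was at 285 to 475 CPM in experiment 1 and 369 to 419 CPM in experiment 2. The 3 copies together took 16.2% to 18.9% of the family's counts in experiment 1 and 19.2% to 22.7% in experiment 2. Summed, the family had a log2 change of -0.14 (SE 0.0908, adjusted p = 0.663).

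For 500 mg/L against 10 mg/L the log2 change of Rps15a-ps6 was -0.66 (SE 0.214, adjusted p = 0.296). Within experiments it was 0.15 at 500 mg/L (SE 0.0932, adjusted p = 0.963) and -0.06 at 10 mg/L (SE 0.0927, adjusted p = 0.940). The authors' deposited table gives it a fold change of -1.59 at 500 mg/L against 10 mg/L (FDR 0.0338).

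Rplp2-ps1 is a copy of Rplp2, which encodes an acidic protein of the ribosomal stalk, where elongation factors bind. Its level was 134, 157, 144, 129 and 159 CPM at 500 mg/L and 121, 112, 142, 102 and 148 CPM in the controls of experiment 1. It was 100, 71.8, 90.7, 88.6 and 84.6 CPM at 10 mg/L and 74.7, 78.2, 91.0, 94.2 and 78.4 CPM in the controls of experiment 2. Experiment 1 was higher throughout, though the lowest mouse of experiment 1, at 102 CPM, and the highest of experiment 2, at 100.2 CPM, nearly met.

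Between the control sets Rplp2-ps1 rose by 0.59 (log2, SE 0.106, edgeR adjusted p = 0.0267, 5 of 5 mice above the median of experiment 2). This call was the least firm of the 3: it held in 13 of 20 fits that each left out 1 mouse, and was lost without control replicate 1, 2, 3, 5, 6, 8 or 10, with adjusted p up to 0.0975. It was also lost when only the control mice were fitted (log2 change 0.59, adjusted p = 0.104). Its parent was at 333 to 510 CPM in experiment 1 and 315 to 506 CPM in experiment 2. The family sum had a log2 change of -0.01 (SE 0.111, adjusted p = 0.987), and the share of Rplp2-ps1 in it was 21.8% to 28.9% in experiment 1 and 14.0% to 18.6% in experiment 2.

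For 500 mg/L against all controls the log2 change of Rplp2-ps1 was 0.47 (SE 0.142, adjusted p = 0.339), and for 500 mg/L against 10 mg/L it was 0.73 (SE 0.168, adjusted p = 0.181). Within experiments it was 0.21 at 500 mg/L (SE 0.105, adjusted p = 0.961) and 0.07 at 10 mg/L (SE 0.106, adjusted p = 0.945). The authors' deposited table gives fold changes of 1.39 at 500 mg/L against control (FDR 0.0328) and 1.64 at 500 mg/L against 10 mg/L (FDR 0.0159).

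**Figure D3:**
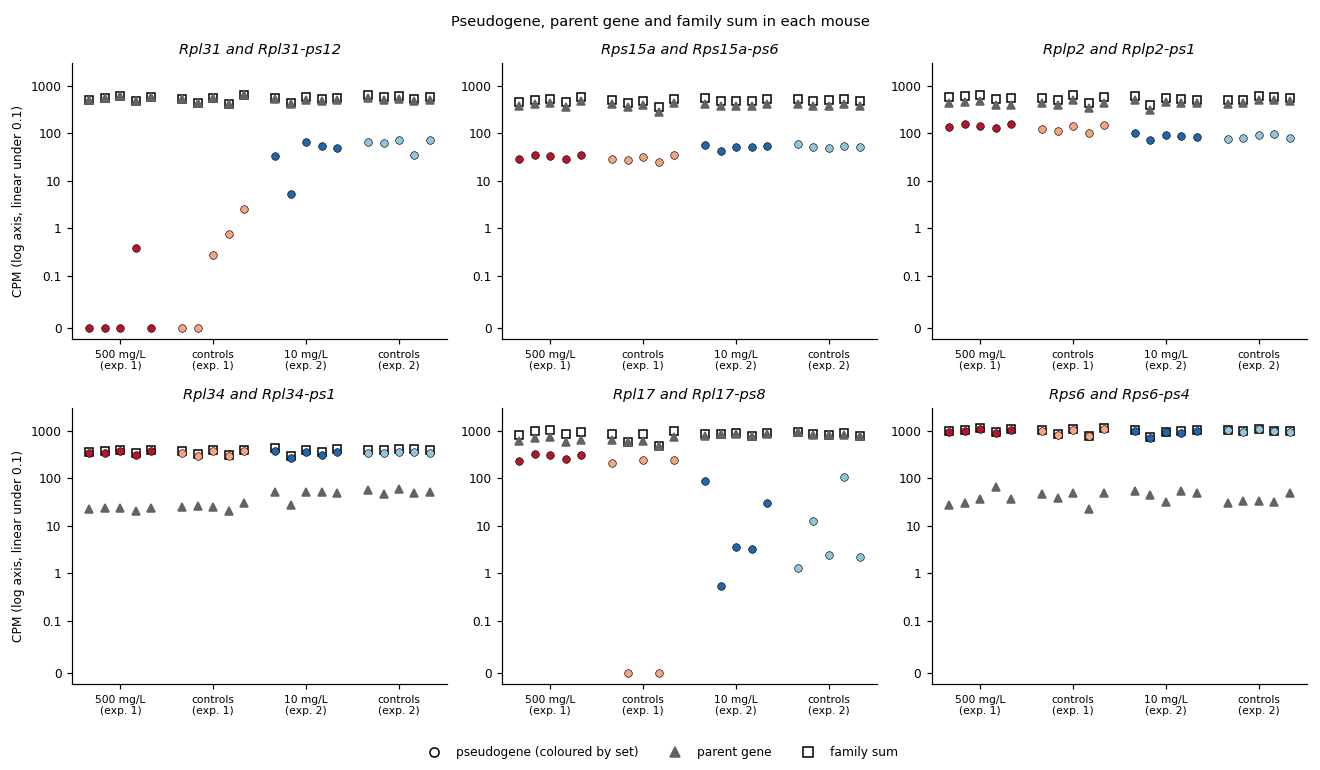
CPM of a pseudogene (coloured circles), its parent gene (triangles) and the sum of the family with all its kept pseudogenes (squares) in each mouse, for 6 families, on a log axis that is linear under 0.1 CPM (n = 5 mice per set, ordered by replicate number). The circles of Rpl31-ps12 drop to 0 to 2.59 CPM in experiment 1 while the squares of the family stay at 404.5 to 630.5 CPM, and the triangles of Rpl34 and Rps6 lie below the circles of their pseudogenes in each mouse.

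In the Rpl34 family it was the parent that differed between the control sets. Rpl34 was at 22.8, 23.4, 22.9, 20.3 and 23.5 CPM at 500 mg/L and 25.0, 25.2, 24.6, 19.9 and 29.4 CPM in the controls of experiment 1. It was at 51.8, 26.99, 50.7, 51.5 and 47.9 CPM at 10 mg/L and 57.3, 45.8, 57.7, 47.5 and 51.1 CPM in the controls of experiment 2. Apart from IAA 10 mg/L replicate 2 at 26.99 CPM, the mice of experiment 2 lay above those of experiment 1. The log2 change of Rpl34 was -0.76 for 500 mg/L against all controls (SE 0.245, edgeR adjusted p = 0.36) and -1.02 against 10 mg/L (SE 0.277, adjusted p = 0.233). Within experiments it was -0.13 at 500 mg/L (adjusted p = 0.965) and -0.18 at 10 mg/L (adjusted p = 0.848). The authors' fold changes for it were -1.58 at 500 mg/L against control (FDR 0.0424) and -1.98 against 10 mg/L (FDR 0.0205).

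Between the control sets Rpl34 fell by 1.06 (log2, SE 0.140, edgeR adjusted p = 0.00301), while Rpl34-ps1, at 287 to 369 CPM in experiment 1 and 270 to 375 CPM in experiment 2, had a log2 change of -0.06 (SE 0.0869, adjusted p = 0.888). Rps18, a protein of the small subunit, was the other parent that passed, with a log2 change of -0.46 (SE 0.0926, adjusted p = 0.0490), a call that 16 of 20 fits without 1 mouse lost. Its copy Rps18-ps4 had one of 0.32 (SE 0.281, adjusted p = 0.774). Parents called were thus 2 of 10, beside 0.157% of all genes, and these were also the 2 called among the 90 cytosolic ribosomal protein genes. Of 10 family sums, 0 passed in edgeR, where 0.107% of all genes and sums did. At an unadjusted p under 0.05 there were 2 of 10, beside 9.78% of all genes in the fit without sums. Exposure gave the same count, 0 of 10 family sums in each comparison, beside 0.0112% of genes and sums for 500 mg/L against all controls or against 10 mg/L, 0.00562% for 10 mg/L against all controls and 0% within experiments. In edgeR 1 sum had an unadjusted p under 0.05, that of Rpl17 at 500 mg/L against its own controls (log2 change 0.31, SE 0.143, p = 0.0444, adjusted p = 0.955). In that comparison 5.19% of all genes did in the fit without sums. Among the family sums between the control sets, that of Rps18 came nearest, with a log2 change of -0.46 (edgeR adjusted p = 0.0580), and DESeq2 called it.

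All 10 family sums were negative between the control sets, with a median log2 change of -0.17, as were 79 of the 90 cytosolic ribosomal protein genes, with a median of -0.19. Over all tested genes the median was 0.00. The 90 genes summed to 41000 to 56700 CPM in the controls of experiment 1 and 54350 to 58020 CPM in those of experiment 2. The members' median was -0.13, with 4 of 13 positive. Control replicates 7 and 9 had the lowest sums of the 90 genes among these 10 mice, 44865 and 41002 CPM, against 52446 to 56697 CPM in the other 3 controls of experiment 1. Leaving out the lowest mice of a set raises that set's level of these genes by construction. The values without them therefore show only how much rested on these 2 mice. With both left out, 6 of 10 family sums were negative (median -0.01), as were 59 of the 90 genes (median -0.05). All 10 family sums were positive at 500 mg/L against its own controls (median 0.08) and 3 of 10 with these 2 mice left out (median -0.05), while 0 of 10 were positive at 10 mg/L against its own (median -0.08).

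Rpl17-ps8 was the pseudogene that varied most within a set. Its parent Rpl17 encodes a protein of the large subunit near the exit of the peptide tunnel. Rpl17-ps8 was at 226, 315, 304, 258 and 303 CPM in the 5 mice at 500 mg/L. In the controls of experiment 1 it was at 207, 0, 242, 0 and 244 CPM, with control replicates 7 and 9 at 0. It was at 87.7, 0.528, 3.60, 3.14 and 29.1 CPM at 10 mg/L and 1.30, 12.7, 2.42, 105 and 2.21 CPM in the controls of experiment 2. In experiment 1 the gene was thus at 0 in 2 of 10 mice and at 207 to 315 CPM in the other 8, while in experiment 2 the highest of 10 was at 105 CPM.

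For control replicates 7 and 9, a count of 0 allows at most 0.0651 and 0.0695 CPM (3 counts, counting error only). Rpl17 itself was at 586 and 477 CPM in these mice, and at 593 to 748 CPM in the other 3 controls of experiment 1, and the family sum was 586 and 477 CPM, beside 835 to 992 CPM in the other 3. Exposed mice included, Rpl17 was at 477 to 748 CPM in experiment 1 and, without overlap, at 754 to 943 CPM in experiment 2. Such a lack of overlap holds for 0.241% of all tested genes. The log2 change of Rpl17 between the control sets was -0.44 (SE 0.098, edgeR adjusted p = 0.081). The share of Rpl17-ps8 in the family was 27.5% to 32.1% at 500 mg/L, and 0% or 24.2% to 29.0% in the controls of experiment 1. It was 0.0630% to 10.4% at 10 mg/L and 0.138% to 11.5% in the controls of experiment 2.

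None of the comparisons of exposed mice passed for Rpl17-ps8. Its log2 change was 1.78 for 500 mg/L against all controls (SE 1.25, edgeR adjusted p = 0.731) and 1.02 against the controls of experiment 1 (SE 1.44, adjusted p = 0.968). The sizes depended on the fit and on single mice: limma-voom gave 5.64 (adjusted p = 0.283) and 5.86 (adjusted p = 0.975), and without control replicate 7 or 9 the second value was 0.70. For 500 mg/L against 10 mg/L, where the values did not overlap, the log2 change was 3.50 (SE 1.66, adjusted p = 0.494), and without IAA 10 mg/L replicate 1 it was 4.94 (adjusted p = 0.417). Between the control sets it was 2.49, and without control replicate 4 it was 4.89 (adjusted p = 0.353). For 10 mg/L it was -1.71 against all controls (SE 1.42, adjusted p = 0.883) and 0.01 against the controls of experiment 2 (SE 1.44, adjusted p = 1.000). The authors' deposited table has a fold change of 32.6 at 500 mg/L against control with an FDR of 0.0767. Rpl17-ps10, the other copy, stayed at 0.0232 to 0.421 CPM in all mice.

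Rps18-ps4 had the lowest p of the 13 within experiment 1. It was at 1.28, 1.39, 1.67, 1.14 and 2.12 CPM at 500 mg/L and at 3.48, 5.53, 1.68, 1.53 and 2.12 CPM in the controls of experiment 1. It was at 1.59, 1.39, 1.94, 1.70 and 2.09 CPM at 10 mg/L and at 2.56, 2.08, 2.20, 2.18 and 2.49 CPM in the controls of experiment 2. The values of exposed and control mice overlapped in both experiments, and control replicates 6 and 7 were the highest of the 20 mice.

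The log2 change of Rps18-ps4 was -0.92 at 500 mg/L against its own controls (SE 0.285, p = 0.00438, edgeR adjusted p = 0.954) and -0.40 at 10 mg/L against its own (SE 0.284, p = 0.173, adjusted p = 0.839). Without control replicate 7 the first of these was -0.54 (SE 0.230, adjusted p = 0.998). Against all controls it was -0.77 at 500 mg/L (adjusted p = 0.370) and -0.57 at 10 mg/L (adjusted p = 0.779). None of these passed.

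**Figure D4:**
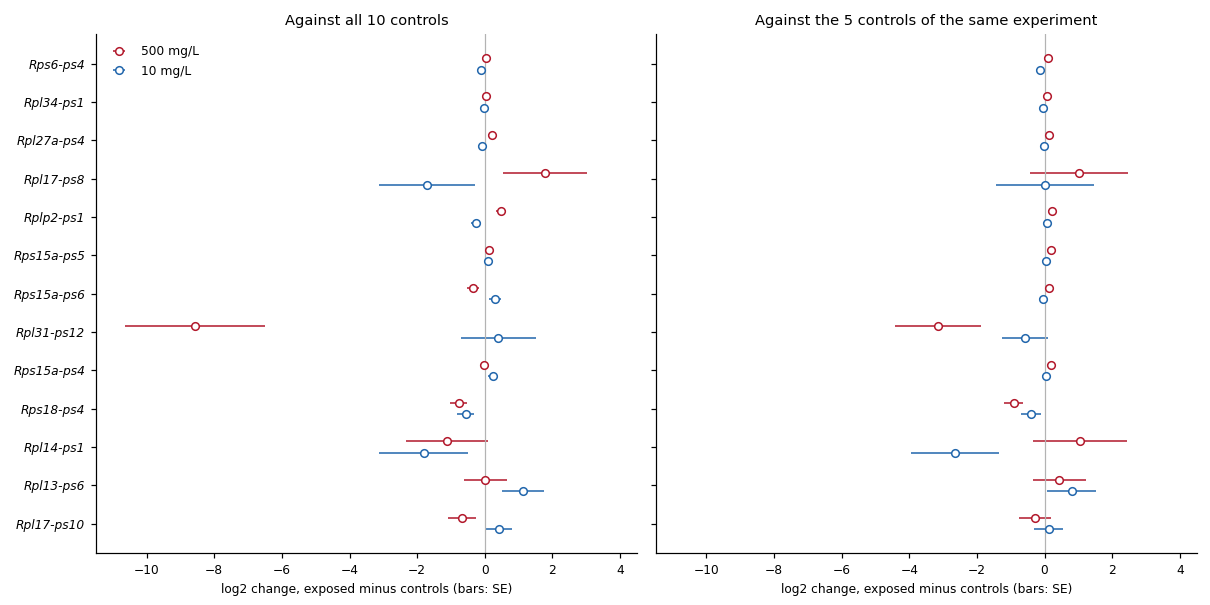
Log2 change of each pseudogene in exposed mice minus controls, at 500 mg/L (red) and 10 mg/L (blue), against all 10 controls (left) and against the 5 controls of the same experiment (right), in edgeR (bars: SE; n = 5 exposed mice per dose). All symbols are drawn open and do not mark a test result. No adjusted p was 0.05 or less, and Rpl31-ps12 at 500 mg/L lies at -8.55 on the left and at -3.15 on the right.

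The remaining pseudogenes differed less. Rpl27a-ps4, a copy of a large-subunit gene, was at 211 to 271 CPM at 500 mg/L and 169 to 280 CPM in the controls of experiment 1, and at 156 to 218 CPM at 10 mg/L and 178 to 204 CPM in the controls of experiment 2. Its log2 change was 0.21 for 500 mg/L against all controls (SE 0.102, edgeR adjusted p = 0.586) and 0.13 against its own (SE 0.115, adjusted p = 0.965). Rps6-ps4 was at 887 to 1097 CPM at 500 mg/L and 762 to 1088 CPM in the controls of experiment 1, and at 686 to 981 CPM at 10 mg/L and 928 to 1064 CPM in the controls of experiment 2. Its log2 change was 0.09 at 500 mg/L (SE 0.105, adjusted p = 0.965) and -0.14 at 10 mg/L (SE 0.105, adjusted p = 0.847), each against its own controls. The values of Rps6-ps4 overlapped between all 4 sets. Those of Rpl27a-ps4 overlapped between exposed mice and controls of the same experiment, while the 500 mg/L mice lay above the controls of experiment 2.

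The rare copies had few counts. Rpl14-ps1 was at 0 in 2 of 5 mice at 500 mg/L and 4 of 5 controls of experiment 1, and in 3 of 5 mice at 10 mg/L and 0 of 5 controls of experiment 2, where control replicate 3 was highest at 1.85 CPM. Its log2 change was -2.64 at 10 mg/L against its own controls (SE 1.30, edgeR adjusted p = 0.781), and -5.32 without IAA 10 mg/L replicate 4 (adjusted p = 0.804). Rpl13-ps6 reached 0.624 CPM at most and had a log2 change of 1.13 for 10 mg/L against all controls (SE 0.614, adjusted p = 0.819).

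Whether the effects at the 2 doses differed, each against its own controls, was tested by an interaction term in the same model. Of all tested genes it called 0, and among the 13 pseudogenes the lowest p was 0.0677, for Rpl14-ps1 (difference of log2 changes 3.69, SE 1.90, adjusted p = 0.914).

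The pseudogenes differed widely in their spread between mice. The SD of log2 CPM over the 20 mice (with 2 counts added) was 4.62 for Rpl31-ps12 and 4.30 for Rpl17-ps8, and 0.131 for Rpl34-ps1. The median over the 13 was 0.418, beside 0.191 over the 10 parents, 0.178 over the 90 ribosomal protein genes, 0.568 over 48 other genes with -ps in their symbol and 0.252 over all tested genes. Within the 4 sets of 5 mice the SD was 1.69 for Rpl31-ps12, 3.91 for Rpl17-ps8, 0.149 for Rps15a-ps6 and 0.175 for Rplp2-ps1, and the median over the 13 was 0.192, beside 0.247 over all tested genes. Rps15a-ps6 and Rplp2-ps1 had 0.418 and 0.382 over all mice.

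**Figure D5:**
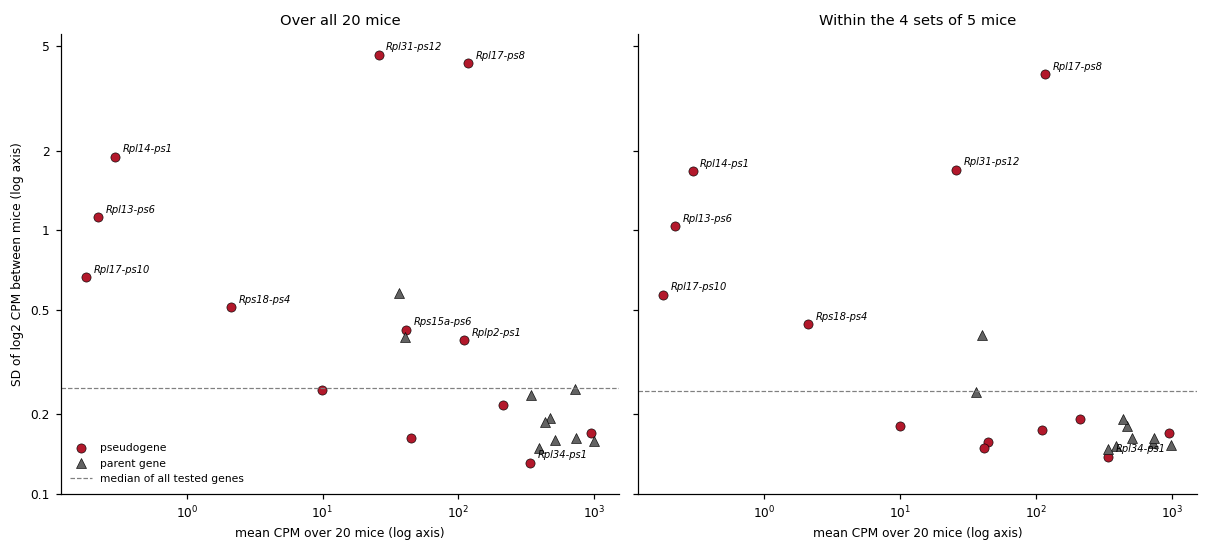
SD of log2 CPM between mice (log axis) against mean CPM over 20 mice (log axis) for the 13 pseudogenes (circles) and their 10 parents (triangles), over all 20 mice (left) and within the 4 sets of 5 mice (right); the dashed line is the median of all tested genes, 0.252 on the left and 0.247 on the right. Rpl31-ps12 lies at 4.62 on the left and 1.69 on the right, and Rpl17-ps8 at 4.30 and 3.91.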

How the data were processed

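Poly(A)-selected, stranded libraries of antral follicle RNA were read for 101 bases from 1 end, and the submitters' processing notes name Salmon 1.2.0 and, for statistics, limma and edgeR in R 4.1.2, with the build GRCm39. The gene-level values that were deposited are Salmon's estimated counts, unnormalised and not always whole, since a read that fits several genes is divided among them. Which annotation was indexed is not given in the sources used here. Per the file headers, the authors' results table holds average log2 expression, p-values with their adjusted forms, a score (F statistic) and signed fold changes, and was read only for the values credited to it. The members, lists and alternatives were chosen with earlier results of these data known.

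Counts were rounded, filtered by edgeR's expression filter with the group as factor (17810 genes left), scaled by trimmed means (TMM) and fitted by quasi-likelihood with edgeR 4.0.16 in R 4.3.3, with Benjamini-Hochberg adjustment. A model with 3 group means gave the comparisons with all controls and between doses, and one with 4 means (each group in each experiment, from the column headers) gave the comparisons within experiments, the control sets and the difference between doses. A family sum adds a parent and its kept pseudogenes before fitting. The text names each member that was called, is among the 6 highest by mean, the most variable or the 3 with the lowest p of a comparison, or belongs to a family with several members, which takes in all 13. Alternatives used DESeq2 1.42.0 or limma 3.58.1, other filters and scalings, only the groups compared, replicate number as a block, and 20 fits that lacked 1 mouse each. The method was tested on simulated data. Identity was computed on GENCODE M21 transcripts of GRCm38, which differs from the authors' build. Library totals were 39.9 M to 67.5 M, and floors given for a count of 0 cover counting error only.

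Replicate numbers did not pair mice across groups.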

Additional observations from a re-analysis of the deposited data

Results flagged for a closer look

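In 69 groups of mice (23 genes in each of 3 groups), Dixon's criterion at 95% set apart 10 values, where chance gives about 1 in 20. In the IAA 10 mg/L group, replicate 2 was low in 3 genes: Rps6-ps4 at 685.8 CPM with the next mouse at 906 CPM, Rpl34 at 26.99 CPM with the next at 47.9 CPM, and Rps18 at 290.0 CPM with the next at 366 CPM. This is the library with 239 CPM of RNAs without a poly(A) tail, and the part of that in these values was not tested. In the same group, replicate 4 was high in Rpl14-ps1, at 0.526 CPM with the next at 0.0654 CPM.

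In the IAA 500 mg/L group, replicate 4 was high in Rpl31-ps12, at 0.3861 CPM with the other 4 at 0, and in Rps6, at 63.55 CPM with the next at 37.1 CPM, and low in Rpl34, at 20.33 CPM with the next at 22.8 CPM. Replicate 5 was high in Rps15a-ps4, at 11.4 CPM with the next at 9.28 CPM. Among the controls, replicate 7 was high in Rps18-ps4, at 5.533 CPM with the next at 3.48 CPM, and replicate 3 in Rpl13-ps6, at 0.6237 CPM with the next at 0.243 CPM.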

How the results depend on the processing

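Over the alternatives, 179 of 185 counts of called pseudogenes or families stayed within 1.5 times their main value. This is a weak measure, since the main value was 0 except for pseudogenes between the control sets, where it was 3. A main value of 0 counts as kept if it stays 0, and one of 3 also counts as kept at 2. The other 6 counts were as follows. For 500 mg/L against all controls, 1 pseudogene was called by DESeq2 (Rpl31-ps12) and 3 with replicate number as a block. For 500 mg/L against 10 mg/L, 2 were called by DESeq2 and 3 with the block. Between the control sets, 1 pseudogene (Rps15a-ps6) was called when only these mice were fitted, and 1 family (Rps18) by DESeq2. There Rpl31-ps12 was removed by the filter on low counts, which took the 10 controls as 1 group; with each control set taken as a group, chosen after seeing the data, 2 were called, Rps15a-ps6 and Rpl31-ps12 (adjusted p = 0.0199). With control replicates 7 and 9 left out, also added, Rps15a-ps6 and Rplp2-ps1 were called. The shares of all genes called in these alternative fits are not given here, so the counts are not read as a result about the pseudogenes. Replicate numbers did not pair mice: the correlations of same-numbered mice ran from -0.128 to 0.228, and 4 of 15 were highest with their own number. Control replicates 6 to 10 share no number with an exposed mouse, so the block sets the 500 mg/L mice against the controls of experiment 2 alone. No paired analysis was possible for 500 mg/L against the controls of experiment 1 or for the control sets, which share no numbers.

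Leaving out each mouse gave 2 to 3 called pseudogenes between the control sets and 0 to 0 in each other comparison. Rpl17-ps8 between the control sets turned from a log2 change of 2.49 to -0.44 with limma-voom (adjusted p = 0.979), and the cause was not tested. Other scalings moved no member's level by more than the SD between mice. The SD of log2 CPM over 20 mice of Rpl31-ps12 was 5.45 with 0.5 counts added and 4.09 with 5. Depth limits Rpl14-ps1, Rpl13-ps6 and Rpl17-ps10, whose means were under 0.3 CPM.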
